A study of Rattus norvegicus with 85 samples.

Results

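RNA editing in the prefrontal cortex (PFC) was compared between neonatal and adult rats of the line exposed to pre-reproductive stress (PRS). The 12 samples, 6 neonatal and 6 adult, were those labelled PFC, PRS and either P0 with generation F1 or P60 with generation F0, out of 85 samples in the series. All were taken from Sprague-Dawley rats. The adults were F0 females that had themselves gone through a week of unpredictable stress in adolescence and were killed about 2 weeks after it, as young adults that the labels call P60. The neonates were F1 pups of both sexes (3 females and 3 males), killed on the day of birth (P0), whose dams had been stressed before mating to untreated males and which were not stressed themselves. Age, generation and direct exposure to stress therefore change together between the groups and cannot be told apart. The labels do not say which pups were littermates or whether an adult was the dam of a pup. The punches were larger in adults than in neonates, and the tissue was located with a separate atlas at each age.

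In A-to-I editing, enzymes of the ADAR family deaminate adenosine in double-stranded RNA to inosine, which ribosomes and reverse transcriptase read as guanosine. A site in coding sequence can thereby change an amino acid, and in the brain such recoding sites lie in transcripts of glutamate receptors, a GABA-A receptor subunit, the serotonin receptor Htr2c and ion channels. Many other sites lie outside coding sequence, among them sites in 3' untranslated regions (3' UTR). The assay was mmPCR-seq: chosen transcripts are amplified from cDNA in multiplexed PCR pools and sequenced, and the editing level of a site is the percentage of its reads with G. Of the 179 positions listed in each file, the 146 that the study lists as edited were used, with positions in rat genome build rn4. The primers fix which stretches of RNA were read. The pairs behind the sites on which the results turn are given here without the tails that all primers share, 5' to 3', and sites on 1 pair are not independent measurements.
Htr2c A to D, forward: cttagtccgcgaattgaacc
Htr2c A to D, reverse: ggggattatgtctggccttta
Gria4 R/G, forward: gagtttcaaaacggcaaggt
Gria4 R/G, reverse: ctggagtccacgatgaatgaa
Gria3 R/G, forward: tgccttgttcactgagtttca
Gria3 R/G, reverse: gagtcgaccatgaacgagtac
Gabra3, forward: ttcatctccagggcctct
Gabra3, reverse: cagtgccagaaactctttacc
Grik2 Y/C and I/V, forward: accaaatgcctcccactatc
Grik2 Y/C and I/V, reverse: tctcccctgatatctggatgt
Grik2 Q/R and Met/Val, forward: tttgggcatgagctcagaa
Grik2 Q/R and Met/Val, reverse: tgtcatagccaggtttagtcc
Flna, forward: ccgccttactgtttctagtct
Flna, reverse: tcgatcaagtagacgccattc
Igf1, forward: agcagtttctctctctctctct
Igf1, reverse: ttgctttgctttctcctttctc

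The neonatal libraries held 149278 to 2545906 reads over the 146 sites and the adult ones 267572 to 1013946, with a read added in once for each site on it. Levels resting on fewer than 50 reads were left out, and sites with fewer than 3 remaining samples at either age were not tested. A level of 50% resting on 50 reads carries a 95% Wilson interval of 36.6% to 63.4%, and 3 edited reads among 50 make a level of 6%. No molecular identifiers tell PCR copies apart, so such limits cover counting error only. The files hold no reads outside the amplified sites, and the labelled tissue could not be checked here against expression markers. The paper raised the concern that choroid plexus tissue had entered PFC samples, because Htr2c editing varied between animals. It measured a choroid plexus marker in F1 samples of both lines and reported low expression. It found no significant correlation of the marker with editing at Htr2c sites A or B. Neonate 36, a female, had the fewest reads and fell under the minimum at 23 of the 146 sites. Neonate 64, a male, had the most reads and stood apart from its group. Its mean level over the 120 sites measured in all 12 samples was 10.8%, against 6.75% to 9.14% in the other 5 neonates, and it was alone the highest neonate at 56 of 110 sites with 1 highest value. The name of each sample's deposited data carries a library number, which was cut here into blocks of 48 (library-number sets). The labels name no sequencing run or batch. The 3 female neonates fall in the same block as the adults and the 3 males in a later block. Sex and library-number set therefore cannot be told apart among the neonates.

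Editing was higher in adult than in neonatal PFC at most of the sites that differed with age. The mean level of a sample over the 120 sites measured throughout was 6.75% at the lowest, 7.47% at the median and 10.8% at the highest in the neonates, and 14.8%, 15.5% and 16.5% in the adults. No neonate reached the lowest adult. The group means were 8.17% ± 1.50 (SD, n = 6) and 15.6% ± 0.629 (SD, n = 6), a difference of 7.44 percentage points (exact permutation p = 0.00216, the smallest that 6 against 6 samples allow). Single sites were compared by a Mann-Whitney test, two-sided, whose p was enumerated over all splits (the exact rank test below), with Benjamini-Hochberg adjustment over the 40 nonsynonymous and the 104 other sites apart and a false discovery rate (FDR) of 0.1. Of the 144 sites tested, 74 differed (51.4%), of which 72 were higher (50%) and 2 lower in adults (1.39%). At 44 of them (30.6%), all higher in adults, no neonate overlapped any adult. The smallest of the 72 rises was 0.283, the median 6.61 and the largest 65.4 percentage points. The remaining 2 of the 146, in Cdh22 and Nova1, had too few adult samples above the read minimum. By the primer list, which gives shared primers once, the 74 sites came from 48 primer pairs.

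**Figure D1:**
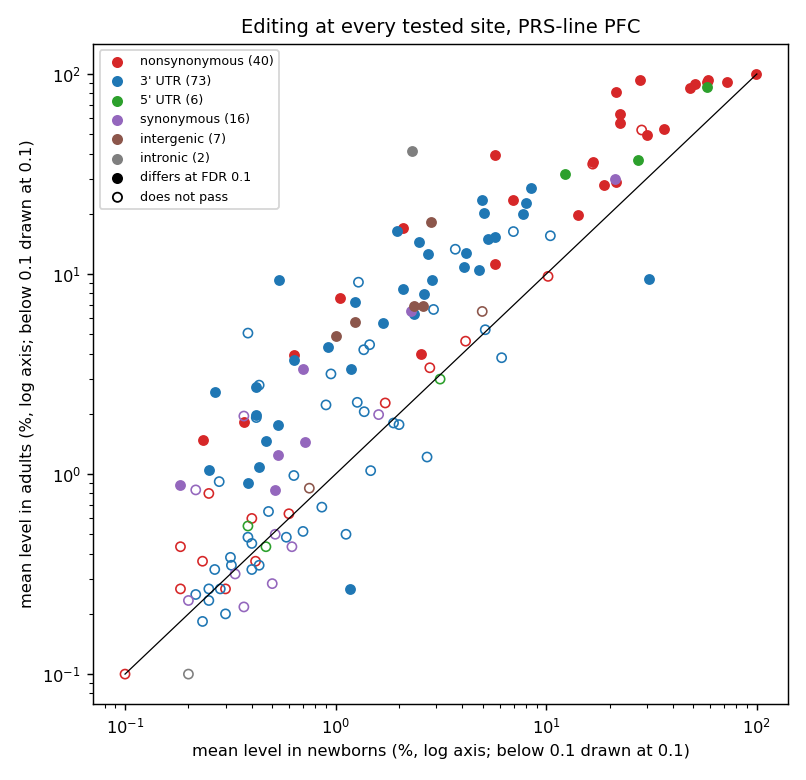
Mean editing level of each of the 144 tested sites in neonates (horizontal, percent, log axis) and in adults (vertical, percent, log axis) of the PRS line, with means under 0.1% drawn at 0.1%, coloured by annotation, with filled points for sites that differ at FDR 0.1. The 72 filled points above the line of equality are higher in adults, and the 2 below it, at 30.8% and 1.17% in neonates, are Igf1 and a site in the 3' UTR of Ankrd28.

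Nonsynonymous sites, which change an amino acid, differed at 25 of 40, all higher in adults, and at 19 of them the ages did not overlap. That is 62.5% called, beside 51.4% of all sites, and 19 of 40 without overlap, beside 30.6% of all sites. Their median difference was 6.02 percentage points, beside 1.54 over all 144 sites. In 3' UTRs, 33 of 73 sites differed, 31 higher and 2 lower, with a median difference of 1.5 points. Synonymous sites differed at 7 of 16, 5' UTR sites at 3 of 6, intergenic sites at 5 of 7 and intronic sites at 1 of 2, all higher in adults, beside 51.4% of all sites. Of the 17 sites with a neonatal mean between 20% and 80%, 16 were called, 1 of them lower in adults, and of the 64 sites under 1%, 19 were called. This split by neonatal level was made after the values were seen and was given no test.

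The 2 largest differences of the 144 were at sites A and B of the serotonin receptor Htr2c, a G-protein-coupled receptor in which editing of neighbouring adenosines changes codons of an intracellular loop that contacts the G protein. Sites A to D, read by 1 primer pair, are the nonsynonymous ones among 6 measured Htr2c sites. At site A (chromosome X, position 31041849, isoleucine to valine) levels in neonates were 4.9% at the lowest, 17.9% at the median and 64.1% at the highest, and in adults 90.4%, 92.5% and 98.3%. All adults lay above all neonates, and the neonates spread widely, with males 64 (52.0%) and 67 (64.1%) far above the other 4. The 95% Wilson interval, which covers read counting only, ran from 4.37% to 5.48% in neonate 39 and from 63.1% to 65.2% in neonate 67. The mean rose from 27.8% ± 24.2 to 93.2% ± 2.71 (SD, n = 6 each), by 65.4 percentage points (adjusted p = 0.00456, exact rank test).

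Htr2c site B (position 31041847, isoleucine to methionine when edited alone) followed the same pattern. Levels were 0.2%, 14.8% and 53.5% at the lowest, median and highest neonate and 71.7%, 81.3% and 91.2% in the adults, without overlap. The mean rose from 21.4% ± 19.7 to 81.6% ± 6.61 (SD, n = 6 each; adjusted p = 0.00456, exact test). At site C (position 31041842, asparagine to serine), levels were 1.4%, 8.75% and 41.9% in neonates and 29.4%, 35.5% and 41.1% in adults. At site D (position 31041837, isoleucine to valine) they were 0.2%, 16.4% and 69.8% in neonates and 41.9%, 53.4% and 65.2% in adults. Neonates 64 and 67 lay within or above the adult range at C and D, and the other 4 neonates lay below every adult at both. Sites C and D did not pass over all 12 samples (differences of 18.8 and 24.1 points, adjusted p = 0.196 and 0.399, exact test). Among the female neonates alone both were called, with differences of 29.1 and 41.5 points (adjusted p = 0.0367 for each, exact test of 3 against 6), and without neonate 64 site C was called (23.9 points, adjusted p = 0.0277, exact test). Reads at site A made up 0.230% to 0.607% of the summed reads in the neonates and 0.456% to 0.533% in the adults, and were 0.532% and 0.448% in neonates 64 and 67. Of the 2 sites in the 3' UTR of Htr2c neither passed. The more edited one had 2.5% to 17.7% in 5 neonates, highest again in neonate 64, and 13.2% to 18.1% in adults (adjusted p = 0.344, exact test).

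**Figure D2:**
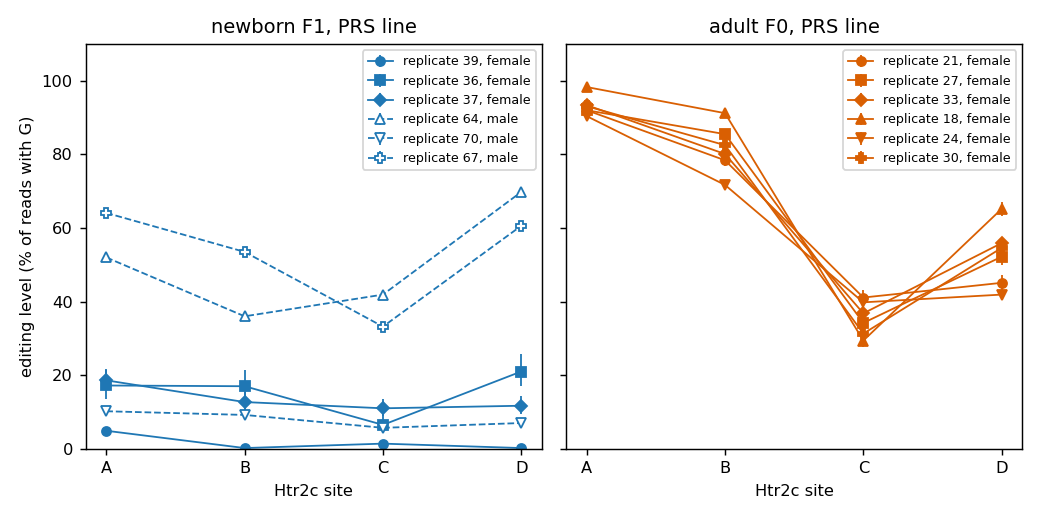
Editing level (percent of reads with G) at Htr2c sites A to D in each neonate (left) and each adult (right) of the PRS line, with 1 line per sample, dashed lines and open marks for males, and bars for the 95% Wilson interval. Site D lies above site A in neonates 64 (69.8% and 52.0%) and 36 (21% and 17.2%). Site A is the most edited of the 4 sites in the other neonates and in every adult. In neonate 67 site A is at 64.1% and site D at 60.6%.

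Among AMPA receptor subunits, the main fast excitatory receptors, 8 of 10 sites differed with age (51.4% over all sites), all higher in adults, of them 4 of 5 nonsynonymous (25 of 40 over all nonsynonymous sites). The R/G site, an arginine-to-glycine change beside the alternatively spliced flip and flop exons that alters recovery from desensitization, rose in Gria2, Gria3 and Gria4. At Gria4 R/G (chromosome 8, position 994881), neonates ranged from 17.4% to 28.1% with a median of 23.1%, and adults from 60.8% to 66.6% with a median of 63.0%. The groups were separated by more than the width of either, and the mean rose from 22.5% ± 4.04 to 63.3% ± 2.38 (SD, n = 6 each). At Gria3 R/G (chromosome X, position 3477800), neonates ranged from 54.6% to 64.1% (median 58.2%) and adults from 92.4% to 93.7% (median 93.2%). At Gria2 R/G (chromosome 2, position 172272247), they ranged from 32.4% to 38.0% (median 36.8%) and from 50.0% to 56.9% (median 53.0%). None of the 3 sites overlapped, and each had an adjusted p of 0.00456 (exact rank test). The adults thus covered a narrow range at each R/G site but around unlike levels, highest in Gria3 and lowest in Gria2.

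The Gria2 Q/R site (chromosome 2, position 172288193), a glutamine-to-arginine change in the pore that makes the channel impermeable to calcium, was edited almost fully at both ages. The lowest neonate was at 99.4%, and the highest neonate reached the level of the lowest adult. The difference of 0.283 points passed the test (adjusted p = 0.0144, exact test). Gria3 K, a lysine-to-arginine site, had 0.2% to 0.7% in neonates, against 0.2% to 0.6% at the adult age (adjusted p = 0.683, exact test). The synonymous position next to each R/G site was also higher in adults. The one in Gria3, on the same reads as R/G, rose from 0.7% ± 0.167 to 3.33% ± 0.520 without overlap (SD, n = 6 each; adjusted p = 0.0102, exact test).

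Kainate receptor subunits, whose receptors also modulate transmitter release, differed at 6 of 7 sites, beside 51.4% of all sites, all higher in adults. Among them were all 5 nonsynonymous ones, beside 62.5% of all nonsynonymous sites. Grik2 carries 4 of these on 2 primer pairs. At the I/V site (chromosome 20, position 53408971), neonates ranged from 43.6% to 52.5% (median 48.6%) and adults from 82.1% to 89.6% (median 84.7%). At the Y/C site (position 53408958), neonates ranged from 50.2% to 63.9% (median 57.5%) and adults from 89.2% to 92.9% (median 91.3%). Both lie in the first membrane segment and had differences of 36.7 and 33.5 points. At the Q/R site in the pore (position 53378633), which lowers calcium permeability, neonates ranged from 62.2% to 76.2% (median 74.5%) and adults from 88.6% to 92.7% (median 90.8%). The Met/Val position on the same reads (position 53378637) rose from 1.05% ± 0.345 to 7.57% ± 0.383. These 4 sites did not overlap between ages (adjusted p = 0.00456 for each, exact rank test). The Grik1 site (chromosome 11, position 27749588, glutamine to arginine) ranged from 15.6% to 42.0% in neonates (median 31.9%) and from 41.6% to 55.2% in adults (median 51.3%). There the highest neonate, the shallow library 36, passed the lowest adult, and the adjusted p was 0.00825 (exact test).

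Gabra3, an alpha subunit of the GABA-A receptor that is prominent in the developing brain, is recoded from isoleucine to methionine (chromosome X, position 158405626). Levels were 46.0%, 50.9% and 55.8% at the lowest, median and highest neonate and 87.9%, 89.1% and 90.0% in the adults. No sample of either group lay between 55.8% and 87.9%, and the mean rose by 38.4 points (adjusted p = 0.00456, exact test). Of 5 sites in potassium and calcium channels, all nonsynonymous, 4 were higher in adults, beside 50% of all sites and 62.5% of nonsynonymous ones. Kcna1, a voltage-gated potassium channel in which editing of the pore speeds recovery from inactivation, was at 0.4%, 1.8% and 4.8% in neonates and 14.1%, 17.1% and 19.1% in adults (chromosome 4, position 163012291; adjusted p = 0.00456, exact test). Kcnma1, the calcium-activated BK channel, moved from 2.55% ± 0.579 to 3.98% ± 0.376 (SD, n = 6 each; adjusted p = 0.00825, exact test), with the highest neonate at the level of the lowest adult. Cacna1d, an L-type calcium channel, has 3 recoding sites on 1 primer pair, in the domain that binds calmodulin. The tyrosine-to-cysteine site rose from 14.2% ± 3.56 to 19.7% ± 2.14 and the isoleucine-to-methionine site from 21.4% ± 5.56 to 28.9% ± 2.31 (SD, n = 6 each; adjusted p = 0.0144 for both, exact test), each with overlap. The glutamine-to-arginine site between them was at 2.80% ± 1.03 and 3.40% ± 0.832 (adjusted p = 0.504, exact test).

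Flna, a large protein that cross-links actin filaments, is recoded from glutamine to arginine (chromosome X, position 160382329). Neonates ranged from 3.4% to 7.4% (median 6.05%) and adults from 28.6% to 57.9% (median 38.6%). The groups did not overlap, and the mean rose by 33.8 points (adjusted p = 0.00456, exact test). The adults spread more widely here than at the non-overlapping receptor and channel sites named above.

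**Figure D3:**
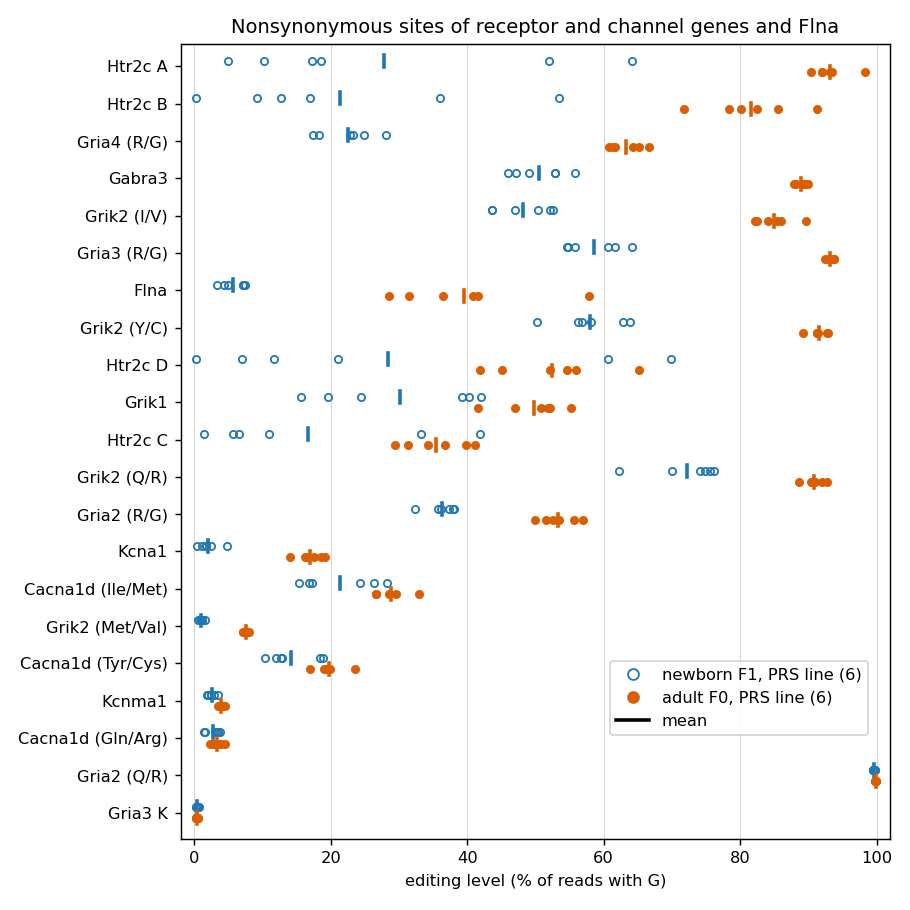
Editing level (percent of reads with G, horizontal) of each sample at 21 nonsynonymous sites of receptor and channel genes and Flna, ordered by the difference in means, with open points for neonates, filled points for adults and a bar for each mean. From Htr2c A to Grik2 Y/C the ages do not overlap, whereas Htr2c C and D overlap through 2 neonates, and Gria2 Q/R lies above 99% in every sample.

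Recoding sites of other genes moved less evenly. Cadps, which primes dense-core vesicles for release, rose at its recoding site (chromosome 15, position 14280228) from 18.8% ± 2.99 to 27.8% ± 1.21, without overlap (SD, n = 6 each; adjusted p = 0.00456, exact test). Of the 7 nonsynonymous sites in the RNA-binding and splicing genes Nova1 and Son, 2 were called (62.5% over all nonsynonymous sites), both in Son, and the adult mean was under 5% at all 7. The highest of them, Son at position 31628548 on chromosome 11, rose from 0.633% ± 0.333 to 3.95% ± 1.28 (adjusted p = 0.00456, exact test). Among 10 nonsynonymous sites in Blcap, Copa, Azin1, Ccni, Tm9sf1, Fabp4, Mcrs1 and Gtf3c2, 4 were called (62.5% over all nonsynonymous sites), those in Copa, Ccni, Mcrs1 and Gtf3c2, all without overlap. Mcrs1 (chromosome 7, position 138004466), which takes part in chromatin-modifying complexes, ranged from 10.2% to 25.4% in neonates (median 16.2%) and from 33.0% to 41.1% in adults (median 36.4%; adjusted p = 0.00456, exact test). The 3 sites in Blcap, a well-known recoded transcript, did not pass. The one with the highest level averaged 10.2% over 5 neonates and 9.73% over 6 adults (adjusted p = 0.697, exact test).

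The transcript of Adarb1, which encodes the editing enzyme ADAR2, is itself edited. Of its 4 measured sites, annotated as 5' UTR and read by 1 primer pair, 3 were higher in adults without overlap, beside 30.6% of all sites. At position 11709486 on chromosome 20, neonates ranged from 47.2% to 67.6% (median 59.6%) and adults from 82.4% to 87.3% (median 86.2%), and the mean rose by 27.7 points (adjusted p = 0.0102, exact rank test). The sites at 11709485 and 11709472 rose from 12.2% to 31.6% and from 27.4% to 37.2%. The site at 11709490 had means of 3.13% and 2.98% (adjusted p = 0.352, exact test), with neonate 64 at 12.2% and the other 5 neonates at 0.2% to 2.4%.

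In the 3' UTR of Ankrd28, which encodes a regulatory subunit of a protein phosphatase, 20 sites were measured within 853 bases, and 14 were higher and 1 lower in adults (15 of 20 called, beside 51.4% of all sites). Most of the 20 share a primer pair with others of them and are not independent measurements. At position 7168481 on chromosome 16, neonates ranged from 3.0% to 10.4% (median 3.8%) and adults from 13.6% to 27.4% (median 20.0%), without overlap (adjusted p = 0.0102, exact test). Sites a few bases apart on the same reads differed in level and in change: at 7168469, between sites that rose, the adults had 1.2% to 2.9%, neonate 64 had 8.0% and the other neonates 0.6% to 1.1% (adjusted p = 0.119, exact test). Neonate 64 was the highest neonate at most of the 20 sites and overlapped the adults at several. In Plekhd1, 2 of 6 sites of the 3' UTR were called, beside 51.4% of all sites. At position 104488036 on chromosome 6, the adults ranged from 11.5% to 16.8%, 5 neonates from 0% to 2.0%, and neonate 64 was at 11.7% (adjusted p = 0.0161, exact test).

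**Figure D4:**
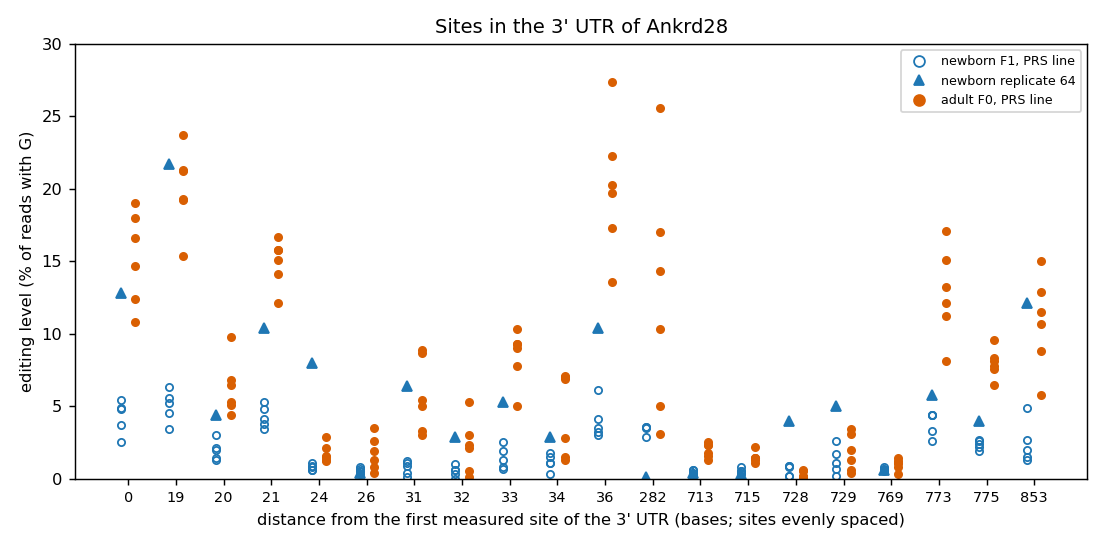
Editing level (percent of reads with G, vertical) of each sample at the 20 measured sites in the 3' UTR of Ankrd28, placed in order and marked with the distance in bases from the first, with open points for neonates, triangles for neonate 64 and filled points for adults. At the site at distance 36 (position 7168481) every adult lies above every neonate, and at distance 728 (position 7169173) neonate 64 is at 4.0% and all adults are at or under 0.6%.

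The 2 sites that were lower in adults had wide or uneven neonatal levels. Igf1, a growth factor of the developing brain, has a 3' UTR site on chromosome 7 at position 24605672. Neonates ranged from 8.2% to 46.7% (median 32.1%) and adults from 5.2% to 11.8% (median 10.0%), with 1 neonate, 39, inside the adult range and the other 5 above it. The means were 30.8% ± 14.6 and 9.48% ± 2.42 (SD, n = 6 each), a fall of 21.3 points (adjusted p = 0.0891, exact rank test). The Ankrd28 site at 7169173 had 0.2% to 4.0% in neonates (median 0.85%) and 0.1% to 0.6% in adults (median 0.15%; adjusted p = 0.08, exact test), and without neonate 64 the difference was -0.333 points in place of -0.9 (adjusted p = 0.122, exact test). With 1 sample left out, Igf1 fell by between 18.1 and 25.8 points in all 12 cases, and in 11 of them its adjusted p passed 0.1, reaching 0.168 (exact test). Against the female neonates alone neither site passed (differences of -14.7 and -0.133 points, adjusted p = 0.496 and 0.464, exact test). Igf2, a growth factor of the same family, has a 3' UTR site on chromosome 1 at position 202908966 that did not pass with all samples (adjusted p = 0.121, exact test). Its neonates were at 3.4% to 4.9% except for neonate 64 at 21.7%, the adults were at 10.6% to 19.3%, and without neonate 64 it was called (12.3 points higher in adults, adjusted p = 0.0122, exact test).

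The comparison was repeated with the neonates of each sex, of which the females share sex and library-number set with the adults. With the 3 female neonates, 123 sites could be tested against the 6 adults and 70 were called, all higher in adults, 60 of them among the 74. With the 3 males, 142 could be tested and 49 were called, 46 higher and 3 lower, 48 of them among the 74. Of the 72 rises, 66 had all 3 female neonates above the read minimum, and at 56 of these 66 every female neonate lay below every adult. The 74 sites were called with these same neonates and adults, so such overlaps describe the same data and are no separate test. In the mean over the sites measured throughout, adults exceeded female neonates by 8.24 points over 122 sites and males by 6.00 points over 139 sites (exact permutation p = 0.0119 for both). The site sets differ, so these 2 values are not a comparison of the sexes. The male neonates had the higher mean at 105 of the 144 sites and the females at 36. Neonate 64 is among the males, and sex and library set were not tested apart.

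The age difference in the PRS line was set against that in control-line PFC (5 neonatal F1 pups, 1 female and 4 males, of unstressed dams, and 5 unstressed adult F0 females), to ask whether it differs between the lines. The test permuted the line labels within each age, exactly, on the difference between the 2 age differences. It called 0 of 142 sites (0%), and 8 sites had an unadjusted p under 0.05. The site with the smallest p was the synonymous Gria3 position beside R/G, where the difference was 2.63 points in the PRS line and 1.70 in controls (p = 0.00381, adjusted p = 0.389, exact permutation). At Htr2c A, control neonates ranged from 34.7% to 84.0% (median 64.6%) and control adults from 82.9% to 91.5% (median 90.4%). The means rose by 25.5 points in controls and by 65.4 in the PRS line, 39.9 points more (p = 0.0165, adjusted p = 0.639, exact permutation), and the neonates of the lines overlapped. Htr2c B rose by 27.2 points in controls and by 60.1 in the PRS line (p = 0.0479, adjusted p = 0.639, exact permutation). The paper compared the F1 neonates of the lines directly and reported lower PFC editing at sites A and B in the PRS line. That is another measure than the difference of age differences used here, which was adjusted over the nonsynonymous sites. Gabra3 rose by 37.8 and 38.4 points. Over the 112 sites measured in every sample of the 4 groups, the mean rose by 7.48 points in the PRS line and by 6.43 in controls, a difference of 1.05 (exact permutation p = 0.236). Without neonate 64 this difference was 1.58 (exact permutation p = 0.0445).

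The age difference in the PFC was also set against that in the amygdala (AMY) of the PRS line (6 neonates, 3 of each sex, and 7 adult females). The labels do not tie PFC and AMY samples to animals. AMY neonates 49 and 50 have library numbers in the same block of 48 as the PFC adults, and the other AMY neonates in a later block. AMY adults 14 and 162 are in another block, unlike the PFC adults. Library-number set was not tested apart from region. With the region labels permuted within each age, 9 of 144 sites were called (6.25%), all nonsynonymous. At 6 of them the rise was larger in the PFC, and at the other 3, in Cacna1d, it was smaller. At Htr2c A, AMY neonates ranged from 65.9% to 80.8% (median 75.5%), above every PFC neonate, and AMY adults from 87.8% to 92.1% (median 90.7%), so that the mean rose by 15.7 points in the AMY and by 65.4 in the PFC (adjusted p = 0.000252, exact permutation). Htr2c B rose by 11.8 and 60.1 points (adjusted p = 0.00118), and Htr2c C by 0.138 and 18.8 points (adjusted p = 0.0982, exact permutation). The PFC difference at Htr2c C did not itself pass the age test. At Grik2 Q/R, AMY neonates ranged from 81.0% to 84.9%, also above every PFC neonate, and AMY adults from 83.6% to 88.8%. The rise was 3.48 points in the AMY and 18.7 in the PFC (adjusted p = 0.000101, exact permutation). Grik2 Met/Val rose by 4.17 and 6.52 points (adjusted p = 0.000252, exact permutation).

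At the 3 Cacna1d sites the rise in the AMY was the larger. The isoleucine-to-methionine site rose by 16.0 points in the AMY and by 7.47 in the PFC (adjusted p = 0.0957, exact permutation), the tyrosine-to-cysteine site by 12 and 5.52 (adjusted p = 0.0957, exact permutation) and the glutamine-to-arginine site by 2.40 and 0.600 (adjusted p = 0.0811, exact permutation). Within the PFC, the difference at the glutamine-to-arginine site did not itself pass the age test. Igf2 had the smallest p of the sites outside coding changes, with a rise of 20.0 points in the AMY and 9.32 in the PFC (adjusted p = 0.11, exact permutation). Over the 115 sites measured in every sample of the 4 groups, the mean rose by 7.16 points in the PFC and by 5.99 in the AMY (exact permutation p = 0.176), and the difference of 1.18 became 1.68 without neonate 64 (exact permutation p = 0.046). Htr2c A and B and Grik2 Q/R and Met/Val were called under each alternative tried for this comparison. The count fell from 9 to 5 when all sites were adjusted together and on the logit scale, and to 4 or 5 without any 1 of PFC adults 18, 21, 27 or 33, AMY neonates 49, 50, 52 or 60, or AMY adults 5 or 6.

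**Figure D5:**
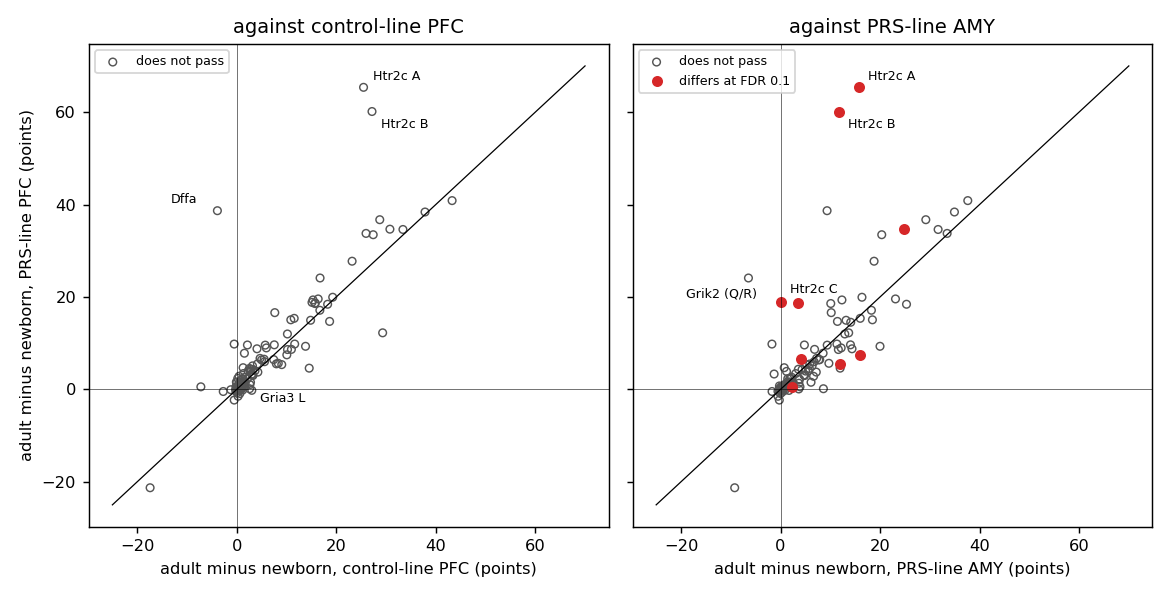
Difference in mean editing level between adults and neonates (percentage points) at each site, in PRS-line PFC (vertical) against control-line PFC (left, 142 sites) and against PRS-line AMY (right, 144 sites), with the line of equality and red points for sites whose age difference differs at FDR 0.1. Htr2c A and B lie far above the line in both panels, at 65.4 and 60.1 points in PRS-line PFC, and pass the test in the right panel only.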

How the data were processed

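mmPCR-seq levels of 12 PRS-line PFC samples were analysed, with control-line PFC and PRS-line AMY samples for comparison. The authors mapped combined paired-end reads with BWA to rat genome build rn4 (submitters' processing notes also name SAMtools) and deposited counts, the reads and edited reads at each of 179 sites, and the level as a fraction, rounded to 3 decimals. Levels were taken from that fraction as percent. The authors' minimum of 50 reads was imposed here, since the files keep shallower sites, and 3 samples a group were required. Neonate 36 missed 15.8% of sites and was kept, as under the study's limit.

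Groups came from the labels, which give each sample its own replicate number. In every pair, replicates differed by more than the counting error of reads. The Mann-Whitney test, Benjamini-Hochberg adjustment and FDR of 0.1 follow the study's methods. The test was computed exactly here, and adjusting nonsynonymous and other sites apart was a choice made here. The sites, lists and tests were chosen with earlier results of these data known. Named are the nonsynonymous sites of 6 gene lists, the 10 largest differences without overlap, every site lower in adults, the sites with the smallest p between age differences (5 for the AMY, 1 for controls) and the most edited adult site of each other list. Other sites given by value were chosen after their values were seen.

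The scripts were checked on simulated data. Alternatives were 200 reads or no minimum, permutation of means, R's default form, pooled reads, the logit scale, other adjustment families and sets of sites, FDR 0.05, neonates of 1 sex, and each sample left out. P-values come from relabelling samples, which were taken as independent although their litters are not given. Other tissues, generations and Htr2c isoforms were not analysed here, and 1 of the tested sites is counted but not reported by name. Scripts ran under Python 3.11.15, and levels were handled in pandas 2.3.3 and numpy 2.4.6, intervals in scipy 1.17.1, figures in matplotlib 3.10.9.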

Additional observations from a re-analysis of the deposited data

Results flagged for a closer look

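Among 66 groups of sites and means looked at, 4 held 1 sample far from the others, and chance alone flags about 1 group in 20. Neonate 64 was at 21.7% at Igf2 (next 4.9%), at 11.7% at Plekhd1 position 104488036 (next 2.0%) and at 4.0% at Ankrd28 position 7169173 (next 0.9%). Adult 21 was at 82.4% at Adarb1 position 11709486, where the next adult was at 85.8%. No cause of these values was tested.

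The age difference differed between PFC and AMY at the sites below, given as the rise in the PFC minus that in the AMY, by exact permutation within age. It was 49.6 points at Htr2c A, 48.3 at Htr2c B, 18.7 at Htr2c C, 15.2 at Grik2 Q/R and 2.35 at Grik2 Met/Val. It was -8.56, -6.44 and -1.80 points at the isoleucine-to-methionine, tyrosine-to-cysteine and glutamine-to-arginine sites of Cacna1d. The adjusted p was close to the limit of 0.1 at Htr2c C (0.0982) and at the Cacna1d sites (0.0811 to 0.0957, exact permutation), which share 1 primer pair. As given above, the count of 9 called sites fell to 5 when all sites were adjusted together.

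Outside the 146 sites, 2 more Htr2c positions on the reads of sites A to D were covered in all 12 samples. Position 31041835 had G in 4 of 58531 reads (0.00683%), beside 3 of 56587 in control PFC (0.0053%). Position 31041841 had G in 7 of 58226 reads (0.012%), beside 0 of 56315 in control PFC (0%). Both were flagged because their shares exceed those in control PFC and the limits that a count of 0 would allow, 0.00513% and 0.00515%. At 31041835 the control share was close to that limit, and the flag rests on 4 reads beside 3. Read errors of this size were not tested.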

How the results depend on the processing

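The count of 74 sites stayed between 61 and 78 under the alternatives except with male neonates only (49), and between 65 and 78 when 1 sample was left out. The rises at Htr2c A and B kept their direction and call under every alternative run, from 60.8 to 72.6 and from 55.9 to 66.5 points when 1 sample was left out. Htr2c C passed by permutation of means (18.8 points, adjusted p = 0.0666, exact), on the logit scale (1.54 in logit units) and with female neonates only (29.1 points), and ranged from 15.8 to 23.9 points with 1 sample left out. Htr2c D passed on the logit scale (1.92) and with female neonates only (41.5), and ranged from 18.5 to 32.4 with 1 sample left out. The rise in the mean over sites lay between 6.71 and 7.83 points when 1 sample was left out. The count of sites that differed between PFC and AMY was 5 with all sites adjusted together, 5 on the logit scale and 4 to 13 with 1 sample left out, a step added after the data were seen. Against control PFC it was 0 under each alternative run, and with female neonates only it could not be computed by site, since 1 control neonate is female. The difference in mean rise ranged from 0.752 to 1.58 points against controls and from 0.856 to 1.68 against the AMY, and of the alternatives run passed only without neonate 64 in both. Gria3 K, which passed in no setting, changed sign with pooled reads (0.0147 points), male neonates only (0.0333) and without neonate 36, ranging from -0.0967 to 0.00667 points with 1 sample left out. Among the other named sites, Igf1 lost its call in 11 of 12 omissions with differences of -25.8 to -18.1 points in all 12, and Ankrd28 7169173 in 8 with -1.09 to -0.333. Calls were also lost with male neonates only at the Cacna1d isoleucine-to-methionine site (adjusted p = 0.155), Gria2 Q/R (0.101) and Plekhd1 104488036 (0.129), and with pooled reads at that Cacna1d site (0.192), Igf1 (0.365) and Ankrd28 7169173 (0.283, exact tests). No paired analysis was possible because no replicate number occurs in both groups. Depth limits sites at low levels, where 3 reads at the median depth were 0.0218% to 0.373% of reads.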

Other observations

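The 6 neonates stood in the same order at the Igf1 site as at Htr2c A, from neonate 39 at the bottom through 70, 36, 37 and 64 to 67 at the top (Spearman's rho of 1 over 6 neonates, as a description). Of the 116 sites outside Htr2c measured in all 6, 4 had a rho of at least 0.9 with Htr2c A, namely Igf1, 2 sites in Ankrd28 and a synonymous Grik2 site, and 0 had a rho of -0.9 or lower. At Igf1 the adults lay at the low end of this order and at Htr2c A above its high end. The points share libraries and differ in depth, and the order was noticed after the values were seen.

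The adults differed most among themselves at an intronic site of Dffa, the inhibitor of the caspase-activated DNase (chromosome 5, position 166189792), with levels from 0.4% to 97.5% and a median of 25.9%, against 0.1% to 8.7% in the neonates. The 4 control adults measured there ranged from 0.4% to 9.5%. In the AMY of the PRS line, the 6 adults measured also spread, from 0.2% to 43.3% (median 15.15%), against 0.5% to 15.7% in AMY neonates. The site had at least 473 reads in each of the 12 samples. PCR copies cannot be told apart, so reads do not count template molecules, and the cause of this spread was not tested. It passed the age test (adjusted p = 0.0614, exact rank test), and the difference from controls had p = 0.0578 before and 0.731 after adjustment (exact permutation).

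Sites outside genes also rose with age. The intergenic site on chromosome 5 at position 145407421 rose from 2.83% ± 2.34 to 18.2% ± 9.83 (SD, n = 6 each; adjusted p = 0.0102, exact rank test), without overlap. The 3' UTR site of Mpeg1, a gene of macrophages and microglia, rose from 4.95% to 23.4%, and a 3' UTR site of Dagla, the enzyme that makes an endocannabinoid, from 8.44% to 27.0% (adjusted p = 0.0102 and 0.0161, exact test).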
